A study of Mus musculus with 4 samples.

Results

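Cadherins are calcium-dependent adhesion molecules of the cell surface, and the open-chromatin regions assigned to 10 of their genes were compared between 2 groups of mouse lung adenocarcinoma cells. The members are Cdh1, Cdh2, Cdh3, Cdh4, Cdh5, Cdh6, Cdh11, Cdh13, Cdh17 and Cdh22, and their regions are the peaks whose assigned gene in the authors' deposited table is one of these symbols. That gave 96 of 80881 peaks, assigned to 9 of the 10 genes. Cdh13 held 28 peaks, Cdh6 13, Cdh2 11, Cdh17 and Cdh22 10 each, Cdh1 9, Cdh3 8, Cdh5 6 and Cdh11 1. No peak carried the symbol Cdh4. The family was selected on deposited differences and adjusted p that were already known, those of Cdh5 among them, so every difference and call given for its peaks is a description and not a test of the family.

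The cells, named KPC in the labels, come from a lung tumour of a KP mouse and were transduced with SpCas9 and selected with puromycin, which holds for both groups. CRISPR activation used the lenti-SAM-Hygro vector with a dRNA against Malat1, a nuclear long noncoding RNA (mA2 dRNA), or against luciferase (Con dRNA), with 2 biological replicate cell samples in each group. A single line was used, and whether it is 1 clone is not stated in the labels. The assay was ATAC-seq (Active Motif kit): a transposase cuts and tags open DNA, so reads pile up where chromatin is accessible. The study asks how Malat1 overexpression affects accessible chromatin in these cells.

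Each value is a group's mean of the normalized reads at a peak, as the authors computed it, and a difference is log2 of the Malat1-guide mean less log2 of the luciferase-guide mean. Only group means are used, because the 4 columns of library values carry names that match no sample label, so no value has an SD and the depth per library is not given here. A peak is called, or said to have risen or fallen, where the authors' deposited table gives an adjusted p under 0.05. Coordinates are in mm10, and all cadherin peaks but 1 span 401 bp, so their read values compare equal lengths. The exception, in Cdh1, spans 772 bp.

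A cadherin's outer repeats bind the same cadherin on a neighbouring cell, and its tail binds catenins that reach the actin cytoskeleton. Epithelial cells are held together mainly by E-cadherin (Cdh1) and P-cadherin (Cdh3), whereas N-cadherin (Cdh2) and cadherin-11 (Cdh11) are typical of mesenchymal cells and VE-cadherin (Cdh5) of endothelium. In carcinomas, a shift from E-cadherin to N-cadherin is a classical sign of epithelial-mesenchymal transition.

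The promoter sequences of the members with a called promoter peak, Cdh6 and Cdh22, are shown because they are the only called cadherin peaks that lie over a start site. Both come from RefSeq (GRCm38.p6), are written 5′ to 3′ on the gene's strand, here the minus strand, and carry in capitals the bases that lie inside the called peak. Of the 10 genes, 2 matched the promoter table. For Cdh6 the 250 bases before the start site are printed, chr15:13173676-13173925, which lie inside the outer RefSeq bounds of the gene because a longer gene model starts farther upstream. For Cdh22 the 63 bases beyond the outer RefSeq bound of the gene are printed, chr2:165234925-165234987.
Cdh6: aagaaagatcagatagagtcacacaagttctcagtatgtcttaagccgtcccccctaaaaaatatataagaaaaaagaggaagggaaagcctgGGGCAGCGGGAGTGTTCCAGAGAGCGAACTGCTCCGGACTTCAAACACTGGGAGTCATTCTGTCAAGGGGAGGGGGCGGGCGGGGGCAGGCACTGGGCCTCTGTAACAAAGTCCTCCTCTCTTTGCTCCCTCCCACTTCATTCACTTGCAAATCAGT
Cdh22: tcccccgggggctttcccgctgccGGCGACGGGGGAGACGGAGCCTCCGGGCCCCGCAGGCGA

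The promoters differ in base composition. Over the 250 bases before the start site, the Cdh22 promoter is 77.6% G or C with 30 CG dinucleotides, and the Cdh6 promoter is 51.2% G or C with 6, against medians of 52.4% and 6 over 32851 RefSeq promoter windows of that length. Of the Cdh6 window 157 bases lie in the called peak, and of the Cdh22 window 226. Neither window holds, on either strand, the motifs TGANTCA (AP-1, in 6.75% of all windows), CCGGAAG (ETS, 6.91%), GGAATG (TEAD, 12.6%), AACCNGTT (GRHL, 1.79%), CAGGTG (an E-box of Snail and Zeb factors, 17.2%), TGTGGTT (RUNX, 4.396%) or the 10-base NF-kB consensus (0.356%).

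Across the family, accessibility was higher in Malat1-guide cells at Cdh5, Cdh11, Cdh6 and Cdh13 and lower at Cdh22. Of the 96 peaks, 10 were called higher, where 2.23% of all peaks were, and 3 were called lower, where 0.507% of all peaks were. The higher calls lay at Cdh5 (5), Cdh6 (2), Cdh13 (2) and Cdh11 (1), and the lower calls all lay at Cdh22. Cdh1, Cdh2, Cdh3 and Cdh17 had no called peak, and of their 38 peaks 3 reached an unadjusted p under 0.05 by the authors' deposited table, as did 11.7% of all peaks. The median difference was 0.40 over the cadherin peaks and 0.09 over all peaks, and 75% against 60.8% had the higher mean in Malat1-guide cells. With the peaks of Cdh5 left out, 5 higher and 3 lower calls stood among 90 peaks and the median difference was 0.34.

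**Figure D1:**
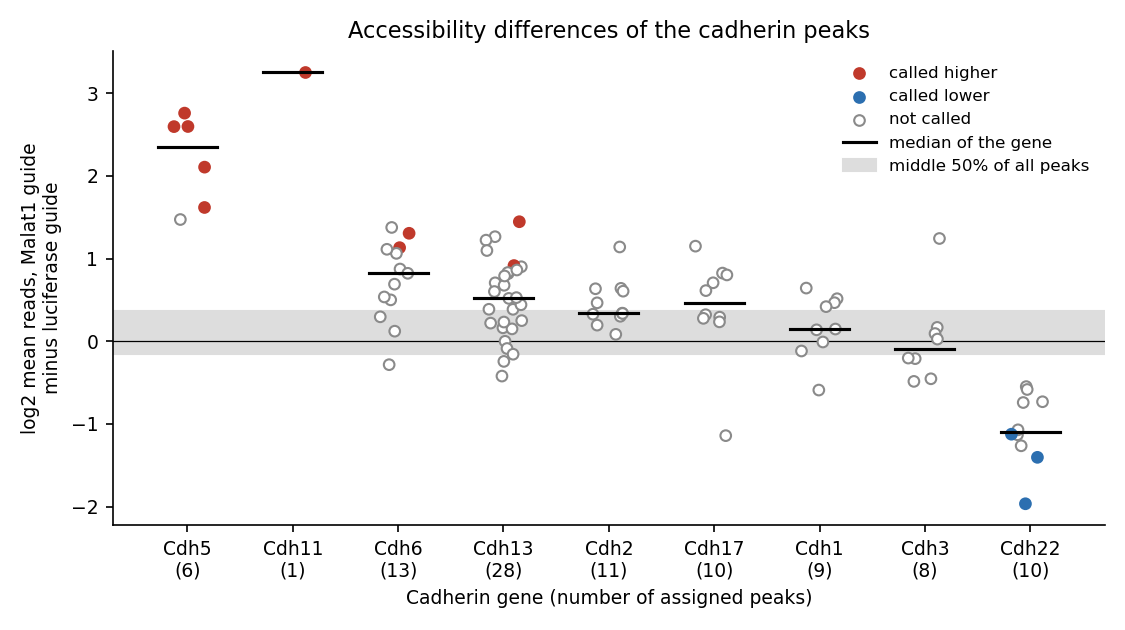
Difference of the log2 group means (vertical axis, Malat1 guide minus luciferase guide) for each of the 96 cadherin peaks, by assigned gene with the number of its peaks. Filled points were called higher (red) or lower (blue), bars are gene medians and the grey band holds the middle 50% of all peaks. The Cdh5 and Cdh11 peaks lie above the band, and all 10 Cdh22 peaks lie below it.

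The cadherin calls under other thresholds stood beside these shares of all peaks. At an adjusted p under 0.01 there were 7 higher and 1 lower, where 1.07% and 0.209% of all peaks were, and at 0.1 there were 12 and 3, where 3.24% and 0.778% were. A change of at least 2-fold left 9 and 3 (1.85% and 0.375% of all peaks), and a mean of at least 20 reads left 10 and 3 (2.29% and 0.523%). Within 50 kb of a start site lay 3 higher and 3 lower calls among 49 peaks (1.72% and 0.427% of all such peaks), and within 3 kb 1 and 1 among 16 (1.33% and 0.239%). Differences centred on the median of all peaks gave 10 and 3 (1.62% and 0.742%), and those centred along abundance likewise 10 and 3 (1.60% and 0.705%). Centring by chromosome gave 8 and 3 (1.46% and 0.602%) and by 10 Mb window 8 and 3 (1.33% and 0.556%).

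Cdh5 encodes VE-cadherin, the adhesion molecule of endothelial junctions. The gene spans 104101613 to 104144504 on chromosome 8, and its 6 peaks are all intergenic, upstream of the start site by 24.4 to 148 kb. No peak was assigned to it at its promoter. In order from the start site, the first upstream peak, at 24.4 kb (104076845 to 104077245), held 54.2 reads in Malat1-guide cells and 7.99 in luciferase-guide cells. The ratio of means was 6.77-fold, a log2 difference of 2.76, where the authors' deposited log2 fold was 1.71. The authors' deposited table gave this peak an adjusted p of 0.00217. The next, at 50.3 kb, held 42.9 and 15.4 reads and was the Cdh5 peak that was not called, at an adjusted p the authors' deposited table gives as 0.12. At 72.6 kb (104028599 to 104028999) the means were 92.2 and 30.04 reads, a 3.07-fold rise, and the authors' deposited table gave an adjusted p of 0.0150. These peaks were weak in luciferase-guide cells, where the median peak of the table held 69.2 reads.

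The remaining Cdh5 peaks were stronger in Malat1-guide cells. The peak at 78.2 kb (104023066 to 104023466) had the smallest p of the whole table, and the authors' deposited table gave an adjusted p of 2.58e-19. It held 636 and 105 reads, and stood at the 62.2nd percentile of all peaks by its luciferase-guide mean and at the 95.3rd by its Malat1-guide mean. At 130 kb (103970969 to 103971369) the means were 184 and 42.6 reads, a 4.31-fold rise, and the authors' deposited table gave an adjusted p of 1.69e-05. The farthest peak, at 148 kb (103953572 to 103953972), held 125 and 20.7 reads, a 6.06-fold rise, and the authors' deposited table gave an adjusted p of 4.70e-06. Summed over the 6 peaks, which cover 2406 bp, the means were 1134 and 222 reads, a ratio of 5.11.

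The opening upstream of Cdh5 extended through the stretch without protein-coding genes that separates it from Cdh11. Between the bound of Cdh11 at 102785493, which is the side of its start site, and the Cdh5 start site lie 1316 kb. The interval is thus upstream of both genes and holds 11 RefSeq genes, none of them protein-coding. This interval was chosen after its values were seen. It held 19 peaks, 6 of them assigned to Cdh5 and 13 to the noncoding genes 1600027J07Rik and 4933400L20Rik. The stretch of the Cdh5 peaks itself overlaps the lncRNA genes Gm32728 and Gm39236 and the pseudogene Gm8748. Of the 13 other peaks, 7 were called higher and 0 lower, and all 19 had the higher mean in Malat1-guide cells, with a median difference of 1.80 and a range from 0.08 to 2.76. The median peak of the interval held 109 reads in Malat1-guide cells and 21.4 in luciferase-guide cells.

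On the other side of the Cdh5 start site the differences were smaller. The next 1 Mb held 33 peaks, of which 0 were called, where 2.73% of all peaks were. An unadjusted p under 0.05 by the authors' deposited table was reached at 3 of them, where 11.7% of all peaks reached it. With so few peaks, 0 calls do not show that accessibility was unchanged there. Their median difference was 0.17, and 23 (69.7%) had the higher mean in Malat1-guide cells, where 60.8% of all peaks had. A single peak lies inside Cdh5, 20.2 kb past its start in intron 2, and was assigned to Gm29682. It held 34.7 and 17.1 reads, and the authors' deposited table gave an adjusted p of 0.628. The next peak, 44.7 kb past the start and assigned to Bean1, held 64.4 and 45.5 reads, and the authors' deposited table gave an adjusted p of 0.834. The peaks nearest on both sides of the promoter thus held 54.2 and 34.7 reads in Malat1-guide cells, below the median of 76.3 over all peaks. Over the 10 Mb window around the locus the median difference was 0.12, and over chromosome 8 it was 0.11.

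**Figure D2:**
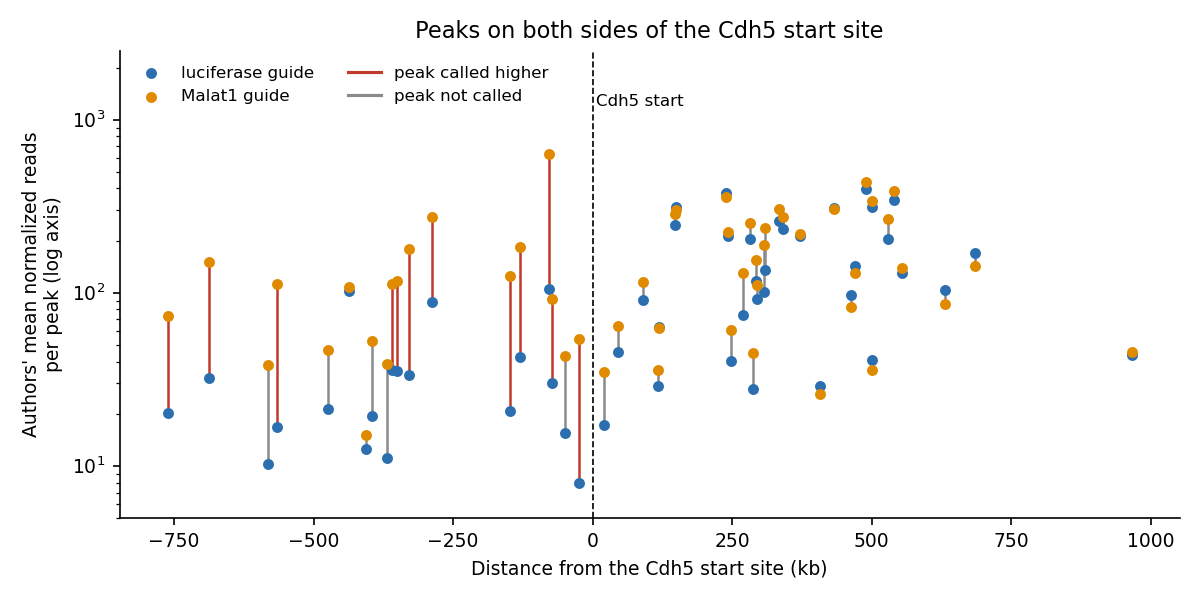
Authors' mean normalized reads per peak (log axis) in luciferase-guide cells (blue) and Malat1-guide cells (orange) against distance from the Cdh5 start site in kb. Shown are the interval back to the start-site bound of Cdh11 and the 1 Mb after the Cdh5 start site. Lines join the 2 group means of a peak and are red where it was called higher. All 12 red lines lie to the left of the start site. None of the 33 peaks to its right was called, where 2.73% of all peaks were.

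Cdh11 encodes a cadherin of osteoblasts and other mesenchymal cells, and spans 102632095 to 102785493 on chromosome 8. Its single peak lies in intron 2 of 12, 80.6 kb from the start site (102704672 to 102705072). It held 49.7 reads in Malat1-guide cells and 5.21 in luciferase-guide cells. By its luciferase-guide mean it was among the weakest of the table, at the 0.0705th percentile, and in Malat1-guide cells it reached the 35.2nd. The ratio of means was 9.54-fold, a log2 difference of 3.25, where the authors' deposited log2 fold was 2.06. The authors' deposited table gave an adjusted p of 2.25e-04. Whether this peak would be in the table without the Malat1-guide libraries is not known, so its rise is a description only. No peak was assigned to the Cdh11 promoter. Of the 7 peaks within 1 Mb of the Cdh11 peak that carry no member's symbol, 3 were called higher, where 2.23% of all peaks were. The 7 had a median difference of 1.86, and all of them are already counted in the interval between Cdh11 and Cdh5 above.

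Cdh6 encodes K-cadherin, known from kidney and from several carcinomas, and spans 13028699 to 13176407 on chromosome 15. Its promoter peak (13173432 to 13173832) held 264 reads in Malat1-guide cells and 120 in luciferase-guide cells, a 2.19-fold rise, and the authors' deposited table gave an adjusted p of 0.0202. An intergenic peak 36.5 kb upstream (13210187 to 13210587) held 258 and 104 reads, a 2.47-fold rise, and the authors' deposited table gave an adjusted p of 3.26e-04. These were its strongest peaks in Malat1-guide cells, and the promoter sequence printed above overlaps the former.

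Of the 13 Cdh6 peaks, 12 had the higher mean in Malat1-guide cells, with a median difference of 0.82, and 6 reached an unadjusted p under 0.05 by the authors' deposited table. The 7 peaks within 250 kb upstream had a median difference of 1.06 and a range from 0.50 to 1.38, all on the higher side. The 5 peaks of promoter and introns had a median of 0.82. The 1 peak with the lower mean lies 1256 kb away and held 96.7 and 118 reads. Chromosome 15 as a whole had a median difference of 0.21, and the 10 Mb window of the gene 0.30. With differences centred on either median the promoter call ended, at an adjusted p of 0.108 and 0.197, while the call at 36.5 kb stood. The promoter difference was 1.13 before centring and 0.93 and 0.83 after it. The part of the chromosome-wide shift in the Cdh6 values was not tested.

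Cdh13 encodes T-cadherin, which is held in the membrane by a lipid anchor and lacks the tail that binds catenins. It spans 118140017 to 119324929 on chromosome 8, and its 28 peaks reach from 8.65 kb upstream to 526 kb downstream of the start site in the authors' annotation, which lies inside the RefSeq bounds. Both calls lie in intron 1. The peak at 139 kb (118422626 to 118423026) held 309 reads in Malat1-guide cells and 114 in luciferase-guide cells, a 2.73-fold rise, and the authors' deposited table gave an adjusted p of 0.00165. The peak at 110 kb (118393836 to 118394236) held 337 and 179 reads, a 1.89-fold rise, and the authors' deposited table gave an adjusted p of 0.0162. Centring by chromosome or by 10 Mb window ended the call at 110 kb, at an adjusted p of 0.0575 and 0.0733, and left the call at 139 kb. The difference at 110 kb was 0.92 before centring and 0.81 and 0.79 after it.

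The differences along Cdh13 were largest in the distal part of intron 1, a division made after the values were seen. The 11 peaks of intron 1 beyond 10 kb all had the higher mean in Malat1-guide cells, with a median difference of 0.83 and a range from 0.22 to 1.45. Within 10 kb of the start site 6 of 7 peaks did, with a median of 0.25, and in introns 2 to 4 it was 6 of 10, with a median of 0.38. Intron 2 alone, with 5 peaks, had a median of 0.52 and a range from -0.42 to 1.10. At the start site itself the promoter peak held 368 and 225 reads, and the authors' deposited table gave an adjusted p of 0.104. The strongest Cdh13 peak, 2.83 kb into intron 1, held 726 and 535 reads, and the authors' deposited table gave an adjusted p of 0.140. Just outside the threshold stood 2 peaks, at 66.4 kb and 235 kb, and the authors' deposited table gave adjusted p of 0.0950 and 0.0964. The 6 further peaks inside the bounds of the gene, assigned to Hsbp1, were not called and had differences from -0.17 to 0.48. Other peaks within 1 Mb of the Cdh13 peaks had 3 higher calls among 83 (3.61%, where 2.23% of all peaks were) and a median difference of 0.07.

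Cdh22 encodes a classical cadherin best known from brain, and spans 165111501 to 165234924 on chromosome 2. All 10 of its peaks had the lower mean in Malat1-guide cells, with differences between -1.97 and -0.55 and a median of -1.10. The peak over the start site (165234563 to 165234963), which covers the capitals of the printed sequence, held 64.6 reads in Malat1-guide cells and 141 in luciferase-guide cells, a 2.18-fold fall, and the authors' deposited table gave an adjusted p of 0.0448. It is the cadherin call nearest to the threshold. Another peak of the promoter class, starting 0.122 kb before the start site, had means of 18.5 and 44.5 reads, and the authors' deposited table gave an adjusted p of 0.240.

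The other Cdh22 calls lie in intron 1 of 11. The strongest peak of the gene, at 27.3 kb (165207113 to 165207513), held 182 reads in Malat1-guide cells and 481 in luciferase-guide cells, a 2.65-fold fall, and the authors' deposited table gave an adjusted p of 7.20e-06. At 45.0 kb (165189502 to 165189902) the means were 22.6 and 88.1 reads, a 3.91-fold fall, and the authors' deposited table gave an adjusted p of 0.0140. Summed over the 10 peaks, which cover 4010 bp, the means were 478 and 1089 reads, a ratio of 0.439. The 178 other peaks within 1 Mb of its peaks had a median difference of 0.07. Of these 0 were called, where 2.23% of all peaks were called higher and 0.507% lower. An unadjusted p under 0.05 by the authors' deposited table was reached at 11 of them, where 11.7% of all peaks reached it. The median of the 10 Mb window was 0.08. A peak inside the gene that was assigned to 1700025C18Rik held 68.9 and 60.3 reads, and the authors' deposited table gave an adjusted p of 0.672.

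**Figure D3:**
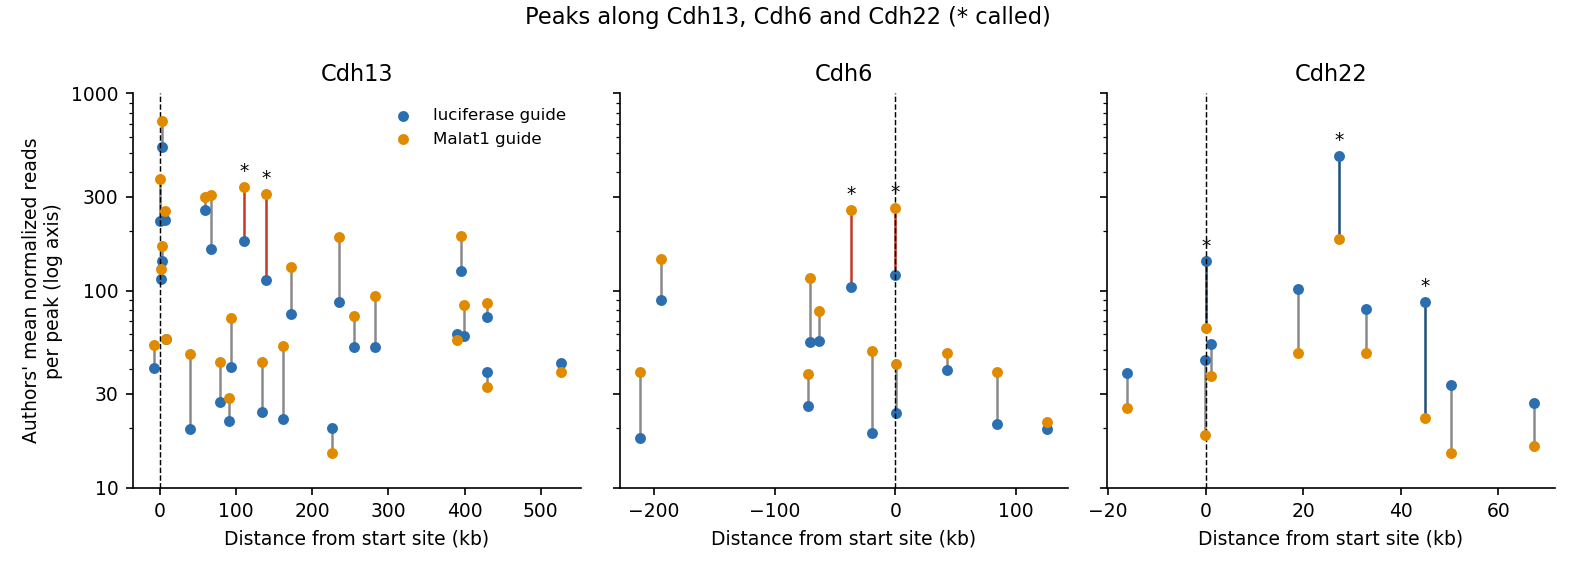
Authors' mean normalized reads per peak (log axis) in luciferase-guide cells (blue) and Malat1-guide cells (orange) against distance from the start site in kb, for Cdh13, Cdh6 and Cdh22. Asterisks mark called peaks, lines join the 2 means of a peak, and the Cdh6 peak 1256 kb away is left out. The orange points lie above the blue in intron 1 of Cdh13 beyond 10 kb and around Cdh6, and below them in all 10 Cdh22 peaks.

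The epithelial cadherins Cdh1 and Cdh3 lie next to each other on chromosome 8, from 106510852 to 106556911 (Cdh3) and from 106603350 to 106670247 (Cdh1), and neither had a called peak. The Cdh1 promoter peak held 130 reads in Malat1-guide cells and 90.7 in luciferase-guide cells, and had the smallest adjusted p of the gene, given as 0.611 by the authors' deposited table. Its strongest peak, 16.2 kb into intron 2, held 800 and 804 reads, and another at 37.5 kb held 631 and 569. Both exceeded every other cadherin peak in luciferase-guide cells. The median difference of the 9 Cdh1 peaks was 0.15.

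Cdh3 had no promoter peak, and its nearest peak, annotated to an exon 2.73 kb upstream of the start site, held 44.7 and 18.9 reads. It had the smallest adjusted p of the gene, given as 0.292 by the authors' deposited table. The 3 strong peaks in intron 2, between 5.64 and 18.97 kb, held 225 to 273 reads in Malat1-guide cells and 309 to 315 in luciferase-guide cells. At each of these 3 the mean was lower in Malat1-guide cells, and the authors' deposited table gave adjusted p from 0.444 to 0.872. The median difference of the 8 peaks was -0.09. Within 1 Mb of the Cdh3 peaks, 175 other peaks had 0 calls, where 2.73% of all peaks were called. An unadjusted p under 0.05 by the authors' deposited table was reached at 10 of them, where 11.7% of all peaks reached it.

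Cdh2, which encodes N-cadherin of mesenchymal and neural cells, lies on chromosome 18 from 16588877 to 16809246. All 11 of its peaks had the higher mean in Malat1-guide cells, with differences from 0.08 to 1.14 and a median of 0.34, and none was called. The promoter peak over the start site held 141 and 92.4 reads, and the authors' deposited table gave an adjusted p of 0.484. The smallest adjusted p, given as 0.261 by the authors' deposited table, belonged to an intronic peak at 104 kb with 47.7 and 21.7 reads. The strongest Cdh2 peak, 63.9 kb into the gene, held 195 and 156 reads. The median difference of chromosome 18 was -0.02.

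Cdh17 encodes the liver-intestine cadherin and lies on chromosome 4 from 11758157 to 11817905. Its promoter peak was weak, with 38.1 reads in Malat1-guide cells and 17.1 in luciferase-guide cells and an adjusted p that the authors' deposited table gives as 0.542. The 7 peaks before or within the gene all had the higher mean in Malat1-guide cells, with a median difference of 0.71. A peak 96.4 kb from the start site, beyond the gene, held 27.9 and 61.7 reads and had the smallest adjusted p of the gene, given as 0.337 by the authors' deposited table. The strongest, at 69.8 kb, held 121 and 103 reads.

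Cdh4, the R-cadherin gene, spans 179442423 to 179899377 on chromosome 2. The 3 peaks inside its bounds lie in its introns and were assigned to 4921531C22Rik, so they are not among the 96. They held 45.8 and 17.3, 35.9 and 24.5, and 73.5 and 62.6 reads with the Malat1 and the luciferase guide, and the authors' deposited table gave adjusted p of 0.191, 0.874 and 0.977. Over all 10 genes, 83 peaks lay inside the RefSeq bounds whatever their assignment. These held 4 higher calls and 3 lower, since the Cdh5 calls and the call upstream of Cdh6 lie outside the gene bounds.

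In position and strength the cadherin peaks were mostly distal and of moderate level. Of the 96, 61 were intronic, 23 intergenic, 10 promoter and 2 exonic by the authors' annotation, or 63.5%, 24.0%, 10.4% and 2.08%, where all peaks had 38.4%, 33.3%, 16.8% and 6.52%. Cdh13 alone gave 25 of the intronic peaks, and without it the intronic share was 52.9%. The start site lay over 50 kb away for 49.0% of the cadherin peaks and for 27.7% of all peaks. The median luciferase-guide mean was 55.4 reads for cadherin peaks and 69.2 for all peaks, and the median cadherin promoter peak held 103 reads where the median promoter peak held 265. Of the 10 higher calls 9 lay over 20 kb from the start site. Peaks of a gene share its locus, and Cdh1 and Cdh3 are neighbours. These shares thus rest on fewer than 9 separate loci and not on 96 independent regions.

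Set against all peaks of like level over both groups, 16 cadherin peaks had a difference above the 95th percentile and 10 below the 5th percentile. The 16 were all 6 Cdh5 peaks, 6 of Cdh13, 3 of Cdh6 and that of Cdh11, and the 10 were 7 of Cdh22, 2 of Cdh3 and 1 of Cdh17.

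**Figure D4:**
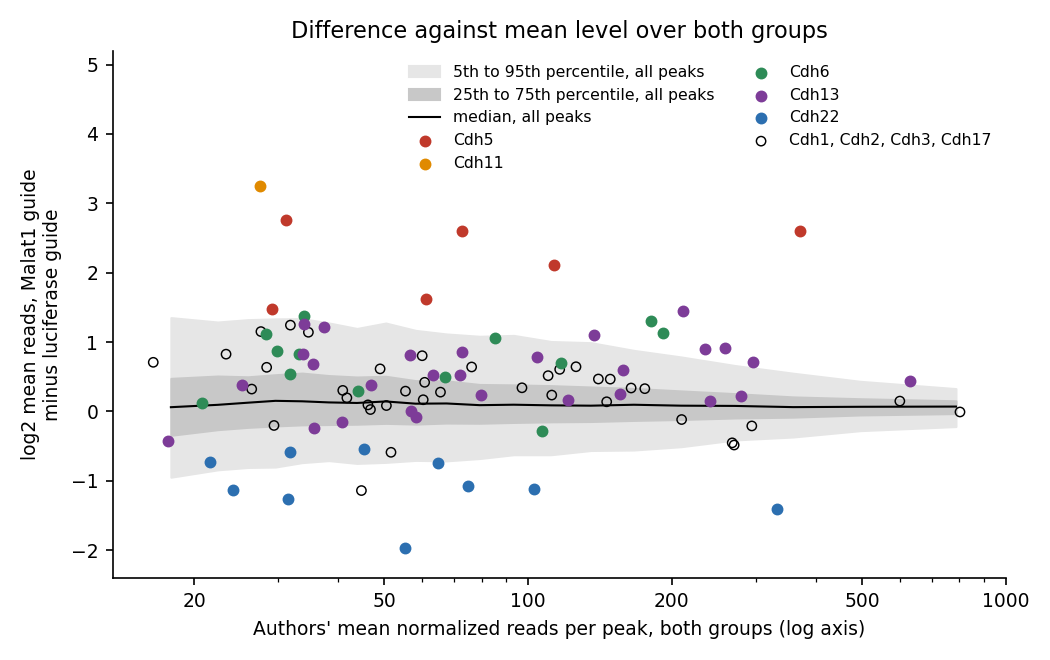
Difference of the log2 group means (vertical axis) against the authors' mean normalized reads over both groups (log axis) for the 96 cadherin peaks. Grey bands and line give the percentiles and median of all peaks in 20 bins of equal size along the level. All 6 Cdh5 peaks and 7 of the 10 Cdh22 peaks lie outside the wider band.

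By the share of its peaks called higher, Cdh5 ranked 4th among 5808 genes with at least 5 peaks. The 5 genes nearest to it in that ranking, which rests on calls between the 2 groups and on no other measure of likeness, were Gm19303 and Tnp1, with 5 of 5 peaks called higher, Gm4251 with 6 of 7, E130006D01Rik with 9 of 11 and Foxs1 with 4 of 5, against 5 of 6 for Cdh5. They lie on chromosomes 15, 1, 14, 5 and 2. Their median differences were 2.34, 2.06, 2.77, 1.83 and 1.08, beside 2.35 for Cdh5. Ranked by the share called lower, Cdh22 stood at place 6 with 3 of 10 peaks.

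Genes that work with cadherins were taken from lists of known partners, sheddases, other cadherins and regulators. The partners, catenins, nectins, adaptor proteins and phosphatases, had 128 peaks at 21 of 23 genes, with 5 called higher (3.91%, where 2.23% of all peaks were) and 1 lower, and a median difference of 0.12. The promoter peak of Jup, which encodes the junctional catenin plakoglobin, rose 1.72-fold from 542 to 934 reads, and the authors' deposited table gave an adjusted p of 1.22e-05. Nectin3, a nectin of adherens junctions, had 2 higher calls. An intergenic peak 88.5 kb away rose 5.37-fold from 15.7 to 84.3 reads, and its promoter peak rose 1.94-fold from 98.997 to 192. For these the authors' deposited table gave adjusted p of 6.14e-04 and 0.0492. Ctnnal1, which encodes an alpha-catenin-like protein, had 2 intronic peaks that rose 4.03-fold and 5.45-fold from 10.4 and 4.72 reads. An intronic peak of Pkp4, a catenin of the p120 family, fell 2.27-fold from 165 to 72.8 reads, and the authors' deposited table gave an adjusted p of 0.0300.

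Ctnnb1 and Ctnna1, with 1 and 12 peaks, had no called peak, where 2.73% of all peaks were called in either direction. Ctnnb1, which encodes beta-catenin, had 1 peak, with 179 and 187 reads, and the leading one of 12 Ctnna1 peaks, at an alpha-catenin gene, held 201 and 112 reads, and the authors' deposited table gave an adjusted p of 0.0874. No peak carried the symbols Ctnnd1 or Ctnna2. The 8 sheddase genes, proteases that cut cadherins at the surface or the membrane, had only 17 peaks. Of these 0 were called, where 2.73% of all peaks were. An unadjusted p under 0.05 by the authors' deposited table was reached at 0 of them, where 11.7% of all peaks reached it. The median difference of the 17 peaks was 0.02.

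The 22 other cadherin genes had 118 peaks at 16 genes, with 2 called higher (1.69%) and 0 lower, and a median difference of 0.12. An unadjusted p under 0.05 by the authors' deposited table was reached at 17 of the 118. An intergenic peak 162 kb from Cdh9 rose 4.53-fold from 6.57 to 29.8 reads, and the authors' deposited table gave an adjusted p of 0.0470. An exonic peak assigned to Celsr3, a cadherin of planar polarity, rose 1.68-fold from 296 to 498 reads, and the authors' deposited table gave an adjusted p of 0.00554. These shares lie near the background.

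The 20 transcription factors known to act on cadherin genes had 234 peaks, with 6 called higher (2.56%) and 0 lower, and a median difference of 0.08, again near the background. An unadjusted p under 0.05 by the authors' deposited table was reached at 33 of the 234. At Grhl2, an epithelial factor, an intergenic peak 31.9 kb away rose 9.97-fold from 19.1 to 191 reads, and another 109 kb away rose 2.08-fold from 96.8 to 202 reads. The promoter peak of Cdx2, an intestinal factor that acts on Cdh17, rose 2.28-fold from 59.2 to 135 reads. An intergenic peak 44.7 kb from Foxa2 rose 2.20-fold from 103 to 226 reads. The intronic peak of Fli1, an ETS factor of endothelium and blood, rose 2.82-fold from 25.01 to 70.5 reads, and the authors' deposited table gave an adjusted p of 0.0408. A peak 370 kb from Klf4, an epithelial factor, rose 1.93-fold from 128 to 246 reads, and the authors' deposited table gave an adjusted p of 0.0200. Snai1, Snai2, Zeb1, Zeb2, Twist1 and Twist2, repressors of Cdh1 and drivers of the mesenchymal state, had 67 peaks and no call. Over all peaks, 2.73% were called in either direction. An unadjusted p under 0.05 by the authors' deposited table was reached at 7 of the 67, where 11.7% of all peaks reached it. The group was singled out after its values were seen, and these counts do not show that its peaks were unchanged.

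**Figure D5:**
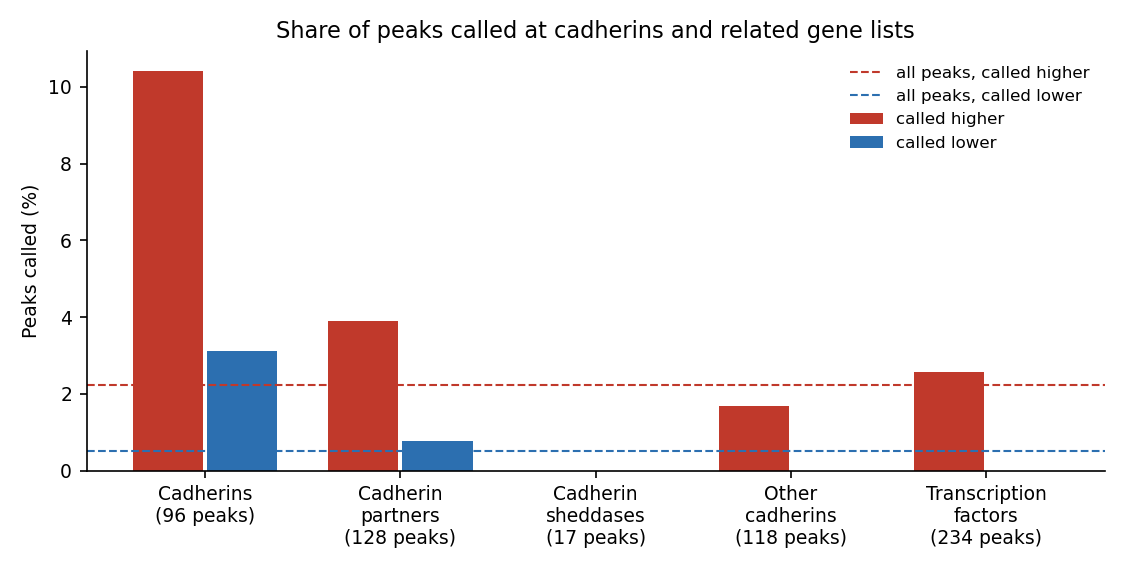
Percent of peaks called higher (red bars) or lower (blue bars) at the cadherins and at 4 lists of related genes, with the number of peaks, beside the shares over all peaks (dashed lines, 2.23% and 0.507%). The cadherins were picked with calls known. The bars of the other cadherins and of the transcription factors lie near the dashed lines.

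Marker genes were read for whether a promoter peak was assigned to them, whatever its strength. Promoter peaks were assigned to 6 of 10 epithelial genes, without Epcam, Cldn4, Cldn7 and Esrp1, and to 3 of 8 genes of lung adenocarcinoma and alveolar type 2 cells, without Nkx2-1, Sftpc, Napsa, Lamp3 and Sftpa1. Mesenchymal genes had them at 7 of 12, endothelial genes at 6 of 16 and leukocyte genes at 1 of 7. The calls of these lists stand beside shares of 2.23% higher and 0.507% lower over all peaks. Epithelial genes had 3 higher calls among 60 peaks (5.00%), at Grhl2 and Krt8, and the lung list had 1 among 51 (1.96%), at Foxa2. The leukocyte list had 1 lower call among 19 peaks, at Laptm5. Beside the Cdh5 rise, the 15 other endothelial genes had 68 peaks with 1 higher call, at Flt1. Their summed means were 7428 reads in Malat1-guide cells and 6892 in luciferase-guide cells. Promoter peaks were present at Kdr, Flt1, Cldn5, Erg, Eng and Sox18 and absent at Cdh5, Pecam1, Tek, Tie1, Emcn, Vwf, Egfl7, Esam, Robo4 and Sox17. That of Eng was weak, with 23.3 reads in Malat1-guide cells and 30.7 in luciferase-guide cells. The median promoter peak held 278 and 265. The strength of the other endothelial promoter peaks is not given here. The 10 mesenchymal genes other than Cdh2 and Cdh11 had 4 higher calls, at Postn and Col1a2, and 1 lower, at Thy1, among 83 peaks, and summed means of 12448 and 10827 reads. Whether other cells played a part in the cadherin differences was not tested. Malat1 RNA is not measured by this assay, and no cadherin RNA or protein was measured in the data used here.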

How the data were processed

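ATAC-seq peaks were compared between mA2 and Con dRNA cells, 2 libraries each. Per the submitters' processing notes, the build was mm10 and the tools were Bowtie2, MACS2, DiffBind, ChIPseeker, Picard, FastQC and deepTools. No source used here gives the read filtering, the shift to insertion sites, the normalization, whether peaks were called on pooled libraries, or the test. Per the file headers, the authors deposited log2 mean normalized reads per group, a log2 fold, a p-value and an adjusted p-value, which matched a Benjamini-Hochberg adjustment over all 80881 peaks within 7.40e-06. Folds here are ratios of group means, because the deposited log2 fold fell short of the means' difference. Over called cadherin peaks the median ratio was 0.79, with a range from 0.62 to 0.93. It was smallest at the Cdh5 peak at 24.4 kb, where the deposited log2 fold was 1.71 and the difference 2.76. The header's dmA12 was taken as mA2 because the series holds a single contrast.

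The 4 library columns match no label and were not used, so no count model, library left out or replicate block was run. Centred p-values came from the deposited p turned into a normal score and were adjusted over all peaks (Python 3.11.15, scipy 1.17.1, statsmodels 0.14.6). The centring was also run on simulated data, and no result of that run is given here. It therefore does not show that the centred p-values hold for these peaks.

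Members and lists were chosen with earlier results of these data known. Named peaks are every called peak, the promoter peak, the peak of smallest p and the strongest peak of each member, called peaks of the lists, peaks from 150 kb before to 50 kb after the Cdh5 start, and the 5 genes nearest to Cdh5 by the share of peaks called higher. Named outside this rule, after their values were seen, were Ctnnb1, Ctnna1, the Eng promoter peak and the group from Snai1 to Twist2. So were the peaks of Cdh1 at 37.5 kb, Cdh3 in intron 2, Cdh6 at 1256 kb and Cdh13 at 66.4 and 235 kb. The other Cdh22 promoter peak and the peaks inside member bounds with other symbols were also named outside it. All 10 members matched a RefSeq gene of GRCm38.p6.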

Additional observations from a re-analysis of the deposited data

How the results depend on the processing

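No paired analysis was possible because the table's library columns carry no replicate number or sample name, and for the same reason leaving out each library in turn was not run. The 10 higher and 3 lower cadherin calls stood with centring on the median of all peaks or along abundance and with at least 20 reads. Centring by chromosome or 10 Mb window left 8 higher and 3 lower calls, without the Cdh6 promoter and the Cdh13 peak at 110 kb. Of 52 centred values of called peaks, 48 kept their call and none turned direction. At an adjusted p under 0.01 by the authors' deposited table, 7 higher calls and 1 lower call stood. Within 50 kb of a start site there were 3 higher calls, and within 3 kb 1 higher and 1 lower. Chosen after seeing the data, the peaks inside gene bounds gave 4 higher calls, and leaving out Cdh5 gave 5. The median difference of 0.40 was 0.29 within 50 kb, 0.46 as a median of gene means and 0.34 without Cdh5. Over the 4 related lists, with 497 peaks, 13 were called higher and 1 lower, where 2.23% and 0.507% of all peaks were. At 0.01 there were 5 and 0 (1.07% and 0.209% of all peaks), and at 0.1 there were 18 and 4 (3.24% and 0.778%). Centring on the median of all peaks gave 1313 higher and 600 lower calls in the whole table, where 1801 and 410 stood without it. Depth per library is not known here, so differences at peaks with few reads carry an error that cannot be given.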
